A study of Mus musculus with 4 samples.

Results

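The 7 genes of the tropomodulin family were followed across 4 RNA-seq libraries of mouse whole cochlea, out of 37239 gene identifiers in each library. They are the leiomodins Lmod1, Lmod2 and Lmod3 and the tropomodulins Tmod1, Tmod2, Tmod3 and Tmod4, matched by symbol. Littermates at postnatal day 8 that were Ikzf2cello/cello (cello) were compared with Ikzf2+/+ (wild-type), with 2 libraries per genotype. Both groups were dissected at the same age, and the labels name no treatment and do not say whether a library pooled animals or whether equal replicate numbers share a litter. Cello is a point mutation allele of Ikzf2, which encodes helios, a zinc finger transcription factor of outer hair cells. The mutation is present in every cell of the animal, so a difference in whole cochlea need not arise in the hair cells. The family was selected on the CPM of Lmod3, which were lower in cello than in wild-type in these same libraries, so the values of its members in this contrast are given as a description without a test.

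Tropomodulins cap the slow-growing pointed end of actin filaments and bind tropomyosin, the rod-like protein that lies along the filament. Leiomodins share the actin-binding core of tropomodulins but carry an additional C-terminal stretch with a WH2 actin-binding motif, and they nucleate filaments and promote growth at the pointed end. In muscle Lmod1 is the smooth muscle form, Lmod2 the cardiac form and Lmod3 the skeletal form, whose loss in people causes nemaline myopathy. Tmod1 is known from red blood cells, lens and heart, Tmod2 from neurons, Tmod4 from skeletal muscle, and Tmod3 is found in most tissues. Hair cells are rich in actin, which fills the stereocilia and the cuticular plate beneath them.

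Coding length and exon number separate the leiomodins from the tropomodulins, and a shared stretch and a leiomodin stretch are shown because they mark what the genes have in common and what sets the leiomodins apart. In GENCODE M21, on GRCm38, each leiomodin had 3 coding exons and 1713 (Lmod3), 1785 (Lmod1) or 1650 (Lmod2) coding bases. Each tropomodulin had 9 coding exons and between 1035 (Tmod4) and 1077 (Tmod1) coding bases. In a MAFFT alignment the 3 leiomodin pairs were identical at 53.2% to 56.5% of aligned bases, the 6 tropomodulin pairs at 59.1% to 69.8%, and the 12 mixed pairs at 44.8% to 54.9%, so that the mixed pairs overlapped in identity with the leiomodin pairs. The following 60 bases are the gap-free stretch in which the most positions, 25, are the same in all 7 genes. Capitals mark those positions, and 6 of the genes are shown.
Lmod3: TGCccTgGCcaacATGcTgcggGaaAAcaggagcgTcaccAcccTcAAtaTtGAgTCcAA
Lmod2: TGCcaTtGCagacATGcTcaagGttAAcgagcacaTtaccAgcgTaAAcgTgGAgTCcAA
Tmod1: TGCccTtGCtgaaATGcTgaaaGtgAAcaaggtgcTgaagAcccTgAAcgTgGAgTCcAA
Tmod2: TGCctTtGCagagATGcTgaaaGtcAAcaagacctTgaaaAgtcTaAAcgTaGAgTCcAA
Tmod3: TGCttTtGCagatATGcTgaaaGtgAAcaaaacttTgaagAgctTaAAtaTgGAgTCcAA
Tmod4: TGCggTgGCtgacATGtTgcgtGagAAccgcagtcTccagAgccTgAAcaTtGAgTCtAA
In Lmod3 this stretch covers coding bases 933 to 992 (chr6:97247867-97247926, minus strand), within a single exon. In Lmod2 (chr6:24603822-24603881, plus strand) it is also within an exon, whereas in the 4 tropomodulins an intron interrupts it. The next 60 bases lie among the last 200 coding bases of Lmod3, the end of the gene that encodes the leiomodin C-terminal region, and are the most alike there among the 3 leiomodins. Capitals mark the 26 positions at which the 3 carry the same base.
Lmod3: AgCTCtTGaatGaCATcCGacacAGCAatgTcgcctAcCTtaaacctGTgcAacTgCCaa
Lmod1: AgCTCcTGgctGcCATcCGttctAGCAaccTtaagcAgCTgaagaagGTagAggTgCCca
Lmod2: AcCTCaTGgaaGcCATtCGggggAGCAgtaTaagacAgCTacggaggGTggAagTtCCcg
These correspond to coding bases 1643 to 1702 of Lmod3, 1715 to 1774 of Lmod1 and 1580 to 1639 of Lmod2, and an intron divides the stretch in each.

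The libraries held 42450937 and 47463910 counted alignments in cello and 49719984 and 42152616 in wild-type, of which 70.0% to 72.8% lay in genes. The deposited unit is CPM, the count of a gene scaled to the library's counted alignments, and 1 read was worth 0.0201 to 0.0237 CPM. In total 14721 genes reached 1 CPM in 2 or more libraries and were tested, and 0 passed an adjusted p of 0.05 in limma (0.0% called), with 1603 at an unadjusted p under 0.05. The count test edgeR also called 0, whereas DESeq2 called 80 genes lower (0.543%) and 115 higher (0.781%). P-values measure the spread between these libraries, which may be partly technical. Summed levels of some cell type markers differed between libraries of the same genotype, and marker levels are given below beside the members.

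Lmod3 and Lmod1 were lower in both cello libraries than in both wild-type libraries, and so was Tmod1, the most abundant member. Tmod2 and Tmod4 were higher in both cello libraries, Tmod3 differed by less than the spread between replicates, and Lmod2 was close to absent. Of the 6 members that passed the filter on low values, 3 therefore lay below wild-type without overlap, beside 28.7% of all genes tested, and 2 lay above, beside 16.9%. The median log2 fold change of these 6 was -0.25, beside -0.03 over all genes tested. The count below wild-type and this median include Lmod3, whose lower CPM selected the family, so neither tests a shift of the family. The other tested members stood at -0.74 (Lmod1), -0.47 (Tmod1), -0.03 (Tmod3), 0.48 (Tmod4) and 0.66 (Tmod2). The direction is thus not shared by the family, and the size of the difference differed between members from -1.16 to 0.66. All fold changes are cello minus wild-type on the log2(CPM + 0.5) scale, which understates the change of low genes, with the standard error (SE) of the limma fit over all genes tested.

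**Figure D1:**
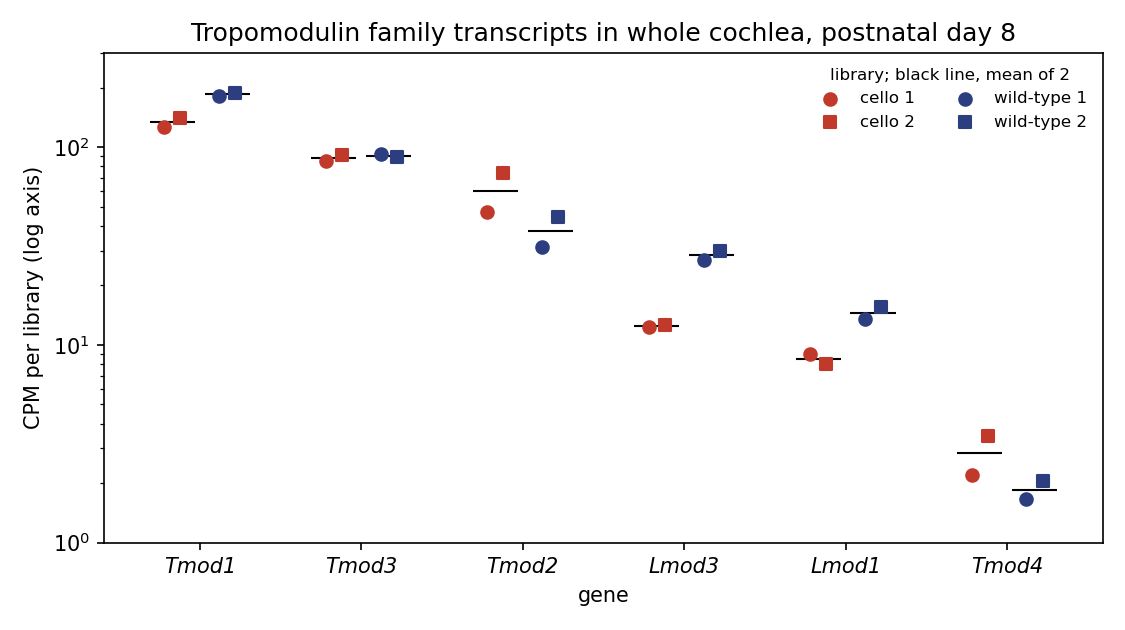
CPM of 6 family members in each library on a log axis, with cello libraries in red left of wild-type libraries in blue, circles for replicate 1, squares for replicate 2 and black lines at the mean of 2 libraries. Lmod3 stands at 12.3 and 12.6 CPM in cello and at 27.1 and 29.9 CPM in wild-type, while Tmod3 overlaps; Lmod2, at or below 0.0712 CPM, is not drawn.

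Among the leiomodins, Lmod3 (ENSMUSG00000044086, chromosome 6, 97238534 to 97252759, minus strand, a protein-coding gene) measured 12.3 and 12.6 CPM in cello, from 522 and 598 reads, and 27.1 and 29.9 CPM in wild-type, from 1345 and 1262 reads. The cello libraries lay close together and both lay well below the wild-type libraries. The log2 fold change was -1.16 (SE 0.10). The exact 95% Poisson intervals, which cover counting error only, reached up to 13.7 CPM in cello and down to 25.6 CPM in wild-type. In RNA of a whole tissue, fewer cells that express a gene and less RNA per cell cannot be told apart.

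Lmod1 (ENSMUSG00000048096, chromosome 1, 135324807 to 135368065, plus strand), the smooth muscle leiomodin, had 9.02 and 7.96 CPM in cello and 13.5 and 15.6 CPM in wild-type. Its genotypes did not overlap, and its log2 fold change was -0.74 (SE 0.14). Of the 8 markers of smooth muscle and pericytes 6 were tested, with 3 fold changes below 0 and 3 above. DESeq2 called 2 of the 6 higher, beside 0.781% of all genes tested, while limma called 0. The summed level of the 8 was 583 and 402 CPM in cello and 357 and 314 CPM in wild-type. The pericyte gene Rgs5 held the larger part of this sum in every library, with 441 and 281 CPM in cello and 229 and 178 CPM in wild-type. Without Rgs5 the sum was 142 and 120.1 CPM in cello and 128 and 137 CPM in wild-type and overlapped between genotypes. Of the 6 tested, only Des, the gene of the muscle intermediate filament desmin, lay below wild-type without overlap, while Smtn, the smoothelin gene (38.5 and 36.8 CPM in cello, 25.9 and 28.5 CPM in wild-type), and Rgs5 lay above. The contractile genes Myh11 and Tagln overlapped between genotypes, and Cnn1 and Myocd were too low to be tested. Against each of the 6 tested markers the log2 ratio of Lmod1 was lower in both cello libraries, with a median difference of -0.76. The part of smooth muscle content in the Lmod1 difference was not tested.

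Lmod2 (ENSMUSG00000029683, chromosome 6, 24597762 to 24605414, plus strand), the cardiac leiomodin, had 0 and 0 reads in cello and 1 and 3 reads in wild-type. A count of 0 allows up to 0.0707 and 0.0632 CPM in the cello libraries, so no difference was detectable at this depth and no fold is given. The cardiac markers were low as well, with summed levels of 7.96 and 6.87 CPM in cello and 7.40 and 8.28 CPM in wild-type, and Nppa, the atrial natriuretic peptide gene, had 0 reads in every library.

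Among the tropomodulins, Tmod1 (ENSMUSG00000028328, chromosome 4, 46038935 to 46116032, plus strand) was the most abundant, with 126 and 141 CPM in cello and 182 and 188 CPM in wild-type. The genotypes did not overlap, and the log2 fold change was -0.47 (SE 0.09). Tmod1 shares 1287 exonic bases with Tstd2 on the opposite strand, a gene that averaged 697 reads per library, and the strand setting of the counting is not given in the sources used here, so reads from the shared part cannot be told apart. Because Tmod1 is also a protein of red blood cells, the erythroid markers were set beside it. Their sum over 8 genes was 1019 and 1200.0 CPM in cello and 634 and 1406 CPM in wild-type, and of the 8 tested, 0 separated the genotypes. The part of red blood cell content in the Tmod1 difference was not tested.

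Tmod2 (ENSMUSG00000032186, chromosome 9, 75565621 to 75611325, minus strand), the neuronal tropomodulin, had 47.0 and 73.8 CPM in cello and 31.1 and 44.2 CPM in wild-type. Cello replicate 1 and wild-type replicate 2 lay close together. The log2 fold change was 0.66 (SE 0.26), and it was 0.34 without cello replicate 2 and 0.41 without wild-type replicate 1. Of the 8 neuronal markers 6 had a fold change above 0, 4 of them without overlap (beside 16.9% of all genes tested), and 2 had one below 0. Their sum was 614 and 796 CPM in cello and 234 and 551 CPM in wild-type, so that cello replicate 2 was the highest and wild-type replicate 1 the lowest library for this sum as for Tmod2. Snap25, a synaptic vesicle fusion gene, stood at 126 and 132 CPM in cello and 26.2 and 82.1 CPM in wild-type, and the neurofilament genes Nefl and Nefm were likewise above wild-type without overlap. Syt1, a synaptic vesicle gene, and Uchl1, a ubiquitin hydrolase gene of neurons, overlapped between genotypes, at -0.43 and -0.12. The part of neuronal content in the Tmod2 difference was not tested.

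Tmod3 (ENSMUSG00000058587, chromosome 9, 75497707 to 75559657, minus strand), the broadly expressed tropomodulin and the neighbour of Tmod2, had 85.5 and 91.9 CPM in cello and 92.0 and 89.2 CPM in wild-type. Its genotypes overlapped, and its log2 fold change was -0.03 (SE 0.08, 95% interval -0.23 to 0.17). Tmod4 (ENSMUSG00000005628, chromosome 3, 95124476 to 95129209, plus strand), the skeletal muscle tropomodulin, had 2.19 and 3.48 CPM in cello, from 93 and 165 reads, and 1.67 and 2.04 CPM in wild-type, from 83 and 86 reads. The log2 fold change was 0.48 (SE 0.26), and it was 0.20 without cello replicate 2 and 0.76 without cello replicate 1. The exact 95% Poisson interval of cello replicate 1 (1.77 to 2.68 CPM) contained the value of wild-type replicate 2.

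Because Lmod3 and Tmod4 are both skeletal muscle genes elsewhere in the body, skeletal muscle markers were set beside them. The 14 skeletal muscle markers summed to 9.28 and 7.44 CPM in cello and to 7.88 and 30.2 CPM in wild-type, so that the sum was highest in wild-type replicate 2 and lay between 7.44 and 9.28 CPM in the other 3 libraries. Only 4 of the 14 passed the filter on low values, with a median log2 fold change of -0.80 that was -0.14 without wild-type replicate 2. Beside 28.7% of all genes tested, 2 of the 4 lay below wild-type without overlap. Myl1, a myosin light chain gene, was 1 of these, with 0.212 and 0.147 CPM in cello, from 9 and 7 reads, and 1.43 and 3.46 CPM in wild-type, from 71 and 146 reads. Its log2 fold change was -2.03, and both wild-type libraries stood well above both cello libraries (adjusted p = 0.419 in limma). Ckm, the creatine kinase gene of muscle, had 1 and 0 reads in cello and 2 and 58 reads in wild-type, and Mylpf, the other of the 2, a fast myosin light chain gene, had 0.565 and 1.01 CPM in cello and 1.15 and 7.38 CPM in wild-type. The myogenic factor gene Myod1 had 0 reads in every library except wild-type replicate 2. The skeletal actin gene Acta1 was lower in both cello libraries and highest in wild-type replicate 2, with 0.118 and 0.337 CPM in cello and 0.664 and 8.64 CPM in wild-type. The log2 fold change of Lmod3 without wild-type replicate 2 was -1.09. The part of muscle content in the Lmod3 and Tmod4 differences was not tested. Actn3 and Ttn, the tested muscle markers with the highest mean levels beside Mylpf, overlapped between genotypes.

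Levels of different genes are compared per length, as CPM per kb of merged exons. On this scale Tmod1 led in cello with 33.9 ± 2.69 CPM per kb, ahead of Tmod3 with 7.96 ± 0.402 (SD, n = 2 each). Lmod3 (5.62 ± 0.0966) and Tmod2 (5.17 ± 1.62) followed within their spread of each other, as did Lmod1 (2.15 ± 0.190) and Tmod4 (1.65 ± 0.529), and Lmod2 was at 0 reads. In wild-type the order was Tmod1 (46.9 ± 0.946 CPM per kb), Lmod3 (12.9 ± 0.922), Tmod3 (8.13 ± 0.174), Lmod1 (3.69 ± 0.379), Tmod2 (3.22 ± 0.792), Tmod4 (1.08 ± 0.153) and Lmod2 (0.0231 ± 0.0183, SD, n = 2 each). There Lmod1 and Tmod2 were neighbours within their spread. Lmod3 therefore had rank 3 and rank 4 of 7 in cello replicates 1 and 2, and rank 2 in both wild-type libraries. The place of Lmod3 relative to Tmod3 depended on the length used. With the longest transcript of each gene, Tmod3 reached 23.1 CPM per kb in wild-type and stood above Lmod3, since the merged exons of Tmod3 are long.

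The summed level of the family was 52.8 and 60.1 CPM per kb in cello and 73.8 and 78.1 CPM per kb in wild-type. Leiomodins made up 14.8% and 12.8% of this sum in cello and 21.2% and 22.4% in wild-type, and Lmod3 made up most of the leiomodin part in every library, from 70.8% to 78.1%. Tmod1 held a share of 60.6% and 59.6% in cello and 62.7% and 60.9% in wild-type, so its share moved little although its level was lower in cello.

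**Figure D2:**
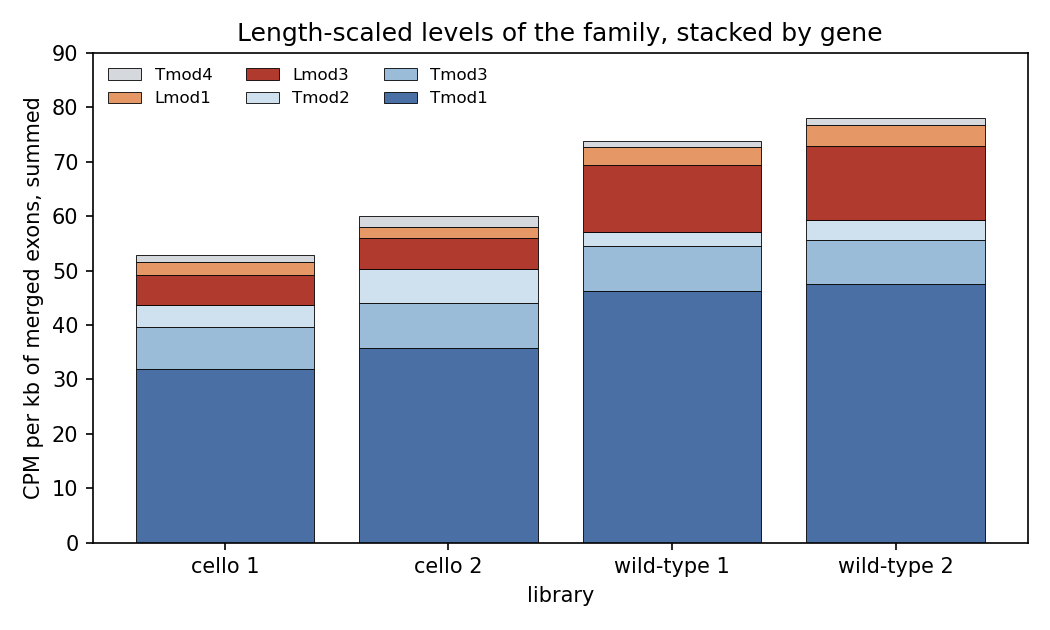
Length-scaled level in CPM per kb of merged exons, stacked by gene for each of 4 libraries, with cello on the left. The red Lmod3 segment is 5.55 and 5.69 CPM per kb in cello and 12.2 and 13.5 in wild-type, and the dark blue Tmod1 segment forms most of every bar; Lmod2 is too low to be seen and is left out.

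Genes with a profile like that of Lmod3 were ranked by the distance between their log2(CPM + 0.5) values over the 4 libraries, each centred on the gene's mean, among 11346 other genes with a mean of at least 5 CPM. Because Lmod3 itself was chosen for its difference, the ranking is a description and says nothing on shared control. The nearest was Slc26a5, the gene of the outer hair cell motor protein prestin, at a distance of 0.0884. It stood at 9.80 and 9.69 CPM in cello and at 20.8 and 24.9 CPM in wild-type. Then came Wdfy1, an endosomal signalling gene (0.110), Rab3b, a vesicle trafficking GTPase gene (0.121), Strc, the gene of stereocilin in the outer hair cell bundle (0.235), and the carbonic anhydrase gene Car7 (0.295). Lad1, which encodes the epithelial anchoring protein ladinin (0.298), Ppp1r17, a phosphatase inhibitor gene (0.300), Pou4f3, a hair cell transcription factor gene (0.311), Crhr1, the gene of a receptor for corticotropin-releasing hormone (0.380), and Tmc1, a mechanotransduction channel gene (0.390), completed the 10. Of these, Slc26a5 and Strc were on the outer hair cell marker list and Pou4f3 and Tmc1 on that of all hair cells. Rab3b stood at 2.90 and 3.22 CPM in cello and 6.84 and 7.19 CPM in wild-type, and Crhr1 at 8.01 and 7.80 CPM in cello and 14.1 and 14.1 CPM in wild-type.

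Within the family Lmod1 was the most like Lmod3, at a distance of 0.443 with 16 of the other genes nearer, followed by Tmod1 at 0.701 with 129 nearer. Tmod3 (1.14), Tmod4 (1.68) and Tmod2 (1.89) were far from it, and 11004 of the 11346 genes were nearer to Lmod3 than Tmod2 was.

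**Figure D3:**
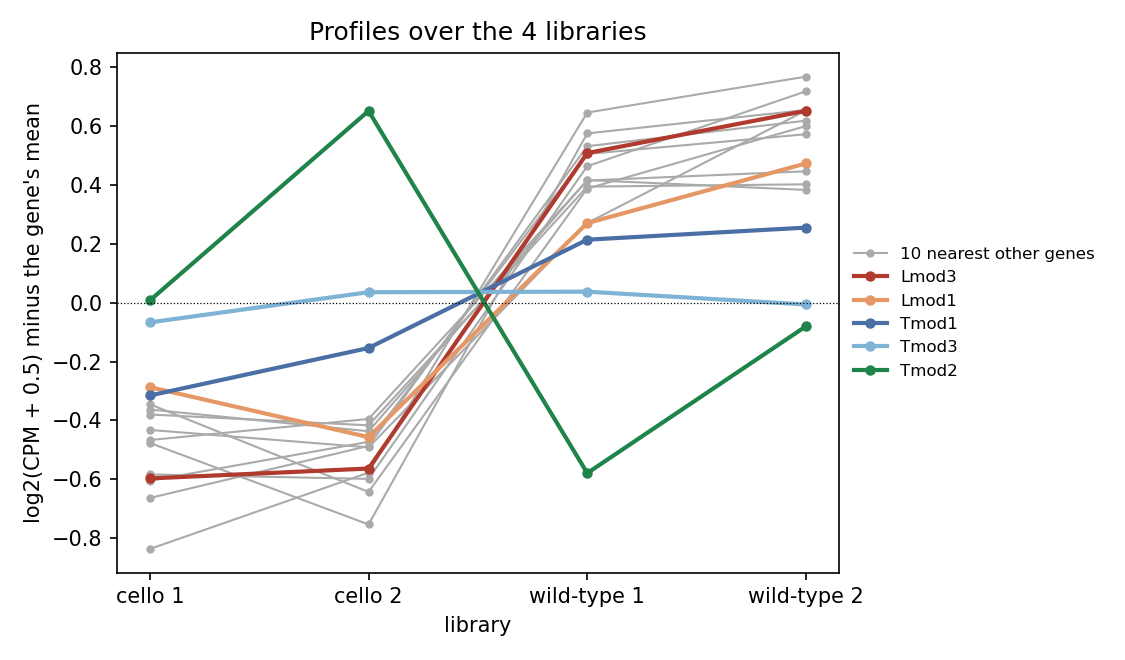
Centred log2(CPM + 0.5) in each of the 4 libraries for Lmod3, Lmod1, Tmod1, Tmod3 and Tmod2 in colour and for the 10 genes nearest to Lmod3 in grey; lines join values of a gene and imply no order of replicates. Tmod2 runs opposite to Lmod3, with its highest value in cello replicate 2, and Tmod3 stays near 0; Tmod4 is not drawn.

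Lmod3 was then set against each hair cell marker within a library. The log2 ratio is not scaled by length, so only its movement between libraries is read. Because Lmod3 was chosen for its lower CPM in cello, a lower ratio there to a gene that differs less follows from that choice. The ratio was likewise lower in both cello libraries against 8 of 8 neuronal and 6 of 6 smooth muscle and pericyte markers. Against 4 skeletal muscle markers it was lower for 2 and higher for 1. The ratio to Slc26a5 was 0.31 and 0.36 in cello and 0.37 and 0.26 in wild-type, and the ratio to Strc was 0.61 and 0.92 in cello and 0.67 and 0.73 in wild-type. Both overlapped between genotypes, with differences of 0.02 for Slc26a5 and 0.07 for Strc. Both genes are among the 10 nearest to Lmod3 in these same values, so their steady ratio is not a second observation. Ocm, the gene of the calcium buffer oncomodulin, was the exception in the other direction, since the ratio of Lmod3 to it was higher in cello (-1.43 and -0.38) than in wild-type (-2.08 and -1.83). Against the remaining 7 of 10 outer hair cell markers the ratio of Lmod3 was lower in both cello libraries, by -0.63 for Chrna10, a nicotinic receptor subunit gene, to -1.14 for the potassium channel gene Kcnn2. The 7 include Ikzf2 (-0.92), the gene that carries the cello mutation, so this marker is not independent of the genotype. Ikzf2 also enters the sums and medians given for the 10. Over the 10 the median difference was -0.75, and against the median level of the list the difference was -0.44.

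Against the 12 markers of all hair cells the ratio was lower in both cello libraries for 11, with a median difference of -0.65, the smallest of these being that to Pou4f3 (-0.30) and the exception being Rasd2 (-0.18, overlapping). Against Myo6, an unconventional myosin gene of hair cells at 241 and 226 CPM in cello and 240 and 248 CPM in wild-type, the difference was -1.10. Against each of the 8 inner hair cell markers the ratio was lower in both cello libraries, with a median difference of -1.12. Otof, which hair cell synapses need for vesicle release, measured 67.1 and 63.4 CPM in cello and 65.9 and 62.1 CPM in wild-type. Of the 8 inner hair cell markers 3 lay below and 2 above wild-type without overlap, beside 28.7% and 16.9% of all genes tested. Their sum was 493 and 500 CPM in cello and 347 and 432 CPM in wild-type, and their median log2 fold change was -0.05. Calb2 held the largest part of this sum in both cello libraries and had the highest fold change of the 8. The log2 ratio of Lmod3 to Calb2 was -3.85 and -4.07 in cello and -1.08 and -2.03 in wild-type. The sum is therefore not read as a level of the list as a whole. The summed level of the 10 outer hair cell markers was 266 and 243 CPM in cello and 421 and 418 CPM in wild-type. Lbh was its largest part in every library, with log2 ratios of Lmod3 to it of -3.22 and -3.06 in cello and -2.37 and -2.26 in wild-type. Ocm had the most negative fold change of the 10, since the ratio of Lmod3 to it differed by 1.05. The summed level of the 12 general markers was 399 and 430 CPM in cello and 482 and 495 CPM in wild-type, with Myo6 as its largest part. The median log2 fold change was -0.41 over the 10 and -0.51 over the 12. In each list 8 genes lay below wild-type without overlap, beside 28.7% of all genes tested. DESeq2 called 3 of the 10 and 2 of the 12 lower, beside 0.543% of all genes tested, while limma called 0. The part of these marker levels in the Lmod3 difference was not tested. Ratios of Tmod1 to the 12 general markers behaved otherwise, lower in both cello libraries for 3 and higher for 6, with a median difference of 0.04.

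**Figure D4:**
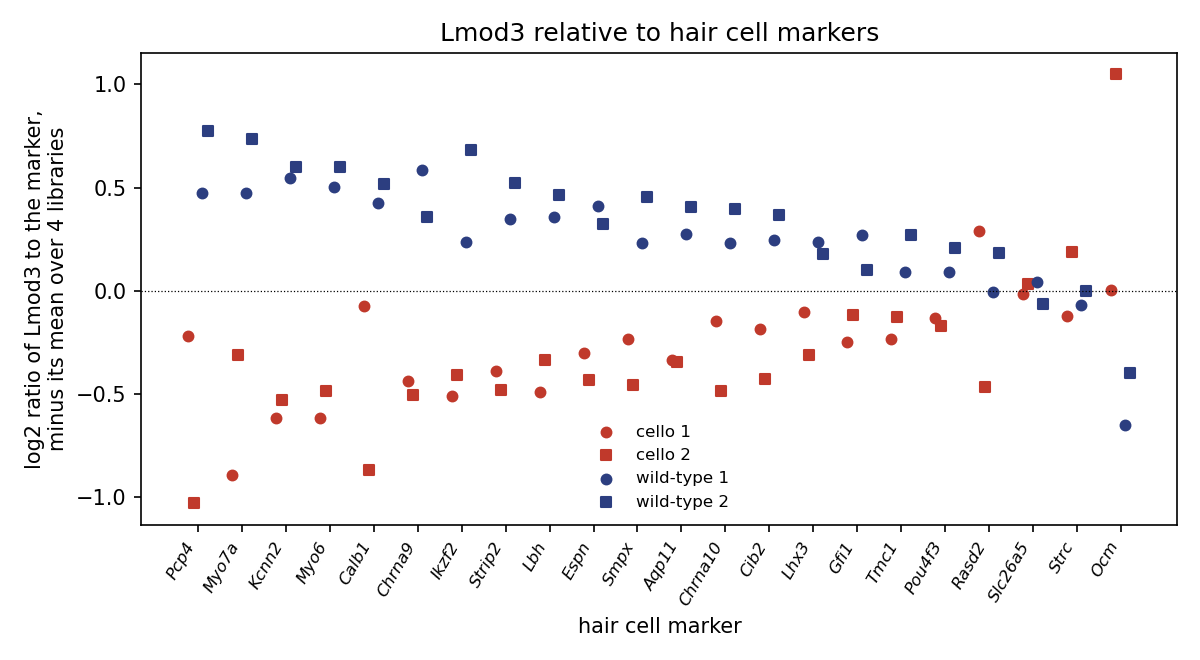
Log2 ratio of Lmod3 to each of 22 hair cell markers per library, minus its mean over 4 libraries, with cello in red and wild-type in blue, ordered by the difference between genotypes. The genotypes meet for Slc26a5 and Strc, and Ocm on the right has the opposite order to most markers.

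The partners of these proteins on the actin filament were examined through 8 lists with 99 genes, of which 88 passed the filter on low values. By limma 0 of the 88 passed in either direction over all genes tested, and DESeq2 also called 0 in either direction. Both cello libraries lay below both wild-type libraries for 31 of the 88, and above for 17, beside 28.7% and 16.9% of all genes tested. Their median log2 fold change was -0.03, beside -0.03 over all genes tested.

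Tropomyosins, to which tropomodulins and leiomodins bind, had 0 of 4 genes passing and a median of 0.01, which was -0.04 without wild-type replicate 2. Tpm4, a cytoskeletal tropomyosin gene, stood at 81.1 and 92.1 CPM in cello and 73.1 and 68.1 CPM in wild-type (log2 fold change 0.29). Tpm2 stood at 6.62 and 8.28 CPM in cello and 9.17 and 10.3 CPM in wild-type (-0.37), and Tpm1 overlapped (0.10). Of 6 actin genes 3 were tested and 0 passed, with a median of -0.30 (-0.36 without cello replicate 1). The cytoplasmic actin genes Actb (626 and 604 CPM in cello, 765 and 747 CPM in wild-type) and Actg1 (85.8 and 80.3 CPM in cello, 102 and 104 CPM in wild-type) did not overlap between genotypes, at -0.30 and -0.31, whereas the smooth muscle actin gene Acta2 overlapped (-0.25).

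Other actin nucleators had no common direction. Among 19 formin and WH2 nucleator genes 0 passed, with a median of 0.07 (-0.05 without cello replicate 1). Of the 19, 4 lay below and 6 above wild-type without overlap, beside 28.7% and 16.9% of all genes tested. The formin genes Fhod3 (11.4 and 12.9 CPM in cello, 7.20 and 8.99 CPM in wild-type, 0.56) and Diaph3 (0.55) were higher and Diaph1 was lower (-0.22). Among 16 genes of the Arp2/3 complex, which nucleates branched filaments, and its activators 0 passed, with a median of 0.02. This median was -0.03 without cello replicate 1, -0.04 without cello replicate 2 and -0.02 without wild-type replicate 2. Its subunit genes Arpc4 (-0.27) and Arpc3 (-0.15) lay below wild-type and Actr2 above (0.13).

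At the opposite filament end, of 20 genes of barbed end capping and severing 17 were tested and 0 passed, with a median of -0.21. Below wild-type without overlap lay 12 of the 17, beside 28.7% of all genes tested. Eps8l2, which encodes a capping protein of stereocilia tips, stood at 14.4 and 13.7 CPM in cello and 18.9 and 17.7 CPM in wild-type (-0.37). Twf2, a twinfilin gene, stood at -0.29 and Gsn, the gelsolin gene, at -0.44. Of 8 genes for proteins that bind actin monomers 7 were tested and 0 passed (median -0.13, and 0.09 without cello replicate 1), with Cap1 at -0.17, the profilin gene Pfn1 at -0.13 and Tmsb10 at -0.26.

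Of 15 genes of the spectrin cortex and adducins, to which Tmod1 connects in red blood cells, 14 were tested and 0 passed (median 0.04, with -0.06 without cello replicate 1 and -0.07 without wild-type replicate 1). Epb41, which encodes protein 4.1, lay below wild-type (-0.21), and the adducin gene Add2 (0.41) and the neuronal spectrin gene Sptbn4 (1.04) above. Of 11 thin filament partners of Lmod3 in skeletal muscle 8 were tested and 0 passed (median 0.04). Neb, the gene of nebulin, which runs along the thin filament, stood at 4.95 and 2.74 CPM in cello and 1.49 and 2.42 CPM in wild-type (0.80), above wild-type without overlap, Mrtfa stood at 0.14 and Tnnt3 at -0.78. The kelch gene Klhl40, whose product stabilises leiomodin 3 in muscle, stood at 1.55 and 2.13 CPM in cello and 1.69 and 2.21 CPM in wild-type and was named after its values were seen. The most negative value among the 88 genes was that of Tnnt3, which overlapped between genotypes.

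**Figure D5:**
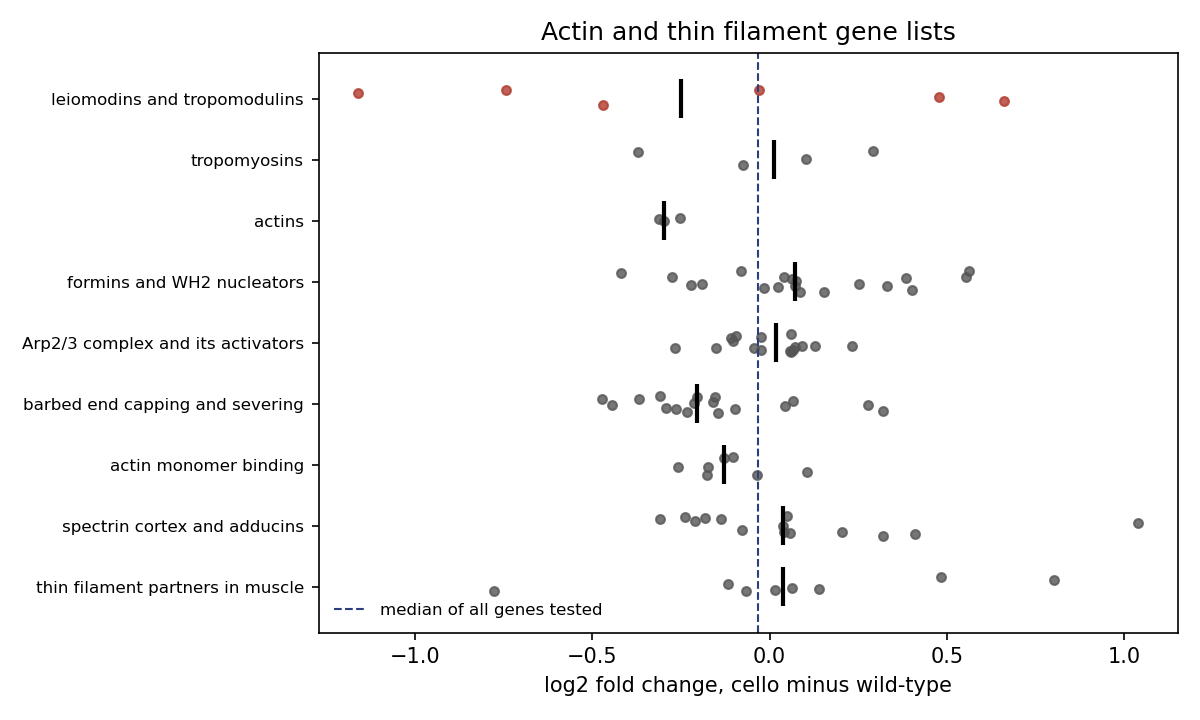
Log2 fold change, cello minus wild-type, of each tested gene (points) in the family (top row, red) and in 8 lists of actin and thin filament genes, with black bars at each list's median and the dashed line at the median of all genes tested (-0.03). Lmod3 at -1.16 lies to the left of every gene in the 8 lists, while most points lie between -0.5 and 0.5.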

How the data were processed

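RNA was taken from dissected whole cochlea at postnatal day 8 and sequenced after TruSeq preparation, per the labels' protocols. The authors deposited CPM per Ensembl gene, 1 table per library, scaled to every counted alignment. The total takes in 5 summary entries without a gene, which held 27.2% to 30.0% of each library and were kept out of tests. Alignment used TopHat and GRCm38, per the submitters' processing notes. The tool that counted reads, its strand setting and the gene models are not stated there. Every value (100%) was a whole multiple of 1 read within 0.001, and these reads entered the count tests.

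Symbols, positions and exon lengths came from GENCODE M21, which matched 36504 of 37239 identifiers. Genes that reached 1 CPM in 2 or more libraries were fitted as log2(CPM + 0.5) by genotype in limma 3.58.1 (R 4.3.3, variance trend, two-sided, Benjamini-Hochberg over 14721 genes, threshold 0.05), checked on simulated data. An exact permutation test of 2 against 2 cannot go below 0.333 and was not used. Intervals and floors (3 reads) cover counting error only. Alternatives were pseudocounts of 0.1 and 1, 2 filters, TMM and genic scaling, edgeR 4.0.16, DESeq2 1.42.0, a replicate block, and leaving out each library. Coding sequences were aligned with MAFFT 7.526. Plots used matplotlib 3.10.9.

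The members and lists were chosen with earlier results of these data known. Named genes are all members, up to 3 per actin list with the smallest p, up to 3 per marker list with the highest mean CPM, and the 10 genes nearest to Lmod3. Markers outside this rule (Ckm, Myod1, Myh11, Tagln, Cnn1, Myocd, Des, Nppa, Acta1, Myl1, Syt1, Uchl1 and hair cell genes in the ratios) were named after their values were seen. The shared coding stretch of 1 member is not reported here.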

Additional observations from a re-analysis of the deposited data

How the results depend on the processing

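The Lmod3 difference of -1.16 lay between -1.19 and -1.13 under the 6 other settings of scaling, pseudocount and test, and between -1.23 and -1.09 when each library was left out. The 36 values of the 6 tested members under these 6 settings moved by less than the spread between replicates. With 2 libraries per genotype, leaving out 1 cannot move a group mean beyond their spread, so those values are given as ranges, Tmod2 from 0.34 to 0.98 and Tmod3 from -0.08 to 0.02. The number of genes called over all genes was 0 except with DESeq2, which called 195, and it ranged from 0 to 90 when each library was left out, with 90 higher without wild-type replicate 2. The count of called genes in the actin and thin filament lists was 0 under every setting run. Of the list medians under the 6 settings, 44 stayed within and 4 moved beyond the spread between replicates, and when a library was left out 20 stayed within and 12 moved beyond it. The ratio of Lmod3 to outer hair cell markers differed by -0.75 as the median over single markers and by -0.44 against the median level of the list. The cause of these shifts was not tested. Replicate numbers are not stated to mark a litter. The replicate block gave 0 called genes. It cannot change a fitted difference in this balanced design, so the Lmod3 value under it is again -1.16, and the filters cannot change it either. The deviations of the replicate 1 libraries from their group means correlated at 0.133 across 14721 genes, which are not independent replicates. With 2 libraries per genotype, precision is limited by their number, and members under a few reads, such as Lmod2, cannot be compared.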
